A study of Mus musculus with 15 samples.

Results

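The 47 imprinted genes described here, with their known control regions, were followed in maps of 5-hydroxymethylcytosine at CG sites (5hmC, or 5hmCG in the plots) and of unmodified CG sites (uCG) in mouse embryonic stem cells. Each member was taken as its gene span plus 5 kb on both sides (GENCODE M21, mm10), and the 47 spans covered 37255 of the 21353092 CGs in the coverage tables. They stand among 31358 protein-coding and long noncoding gene spans with at least 10 CGs, built in the same way. All 47 held enough CGs to be described, 6 of them are noncoding RNA genes, and 19 spans overlapped another member's span, so that neighbours such as Nnat and Blcap share CGs.

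Imprinted genes are expressed from only the maternal or only the paternal allele. The choice is set in the germ line, where an imprinting control region is methylated in the egg or in the sperm, and the methylated copy is afterwards protected by the zinc finger protein ZFP57 and its partners while the other copy stays unmethylated. At such a region one copy should therefore read as unmodified CG, and 5hmC, the product of TET oxidation of 5-methylcytosine, can arise only on a methylated copy.

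The cells were E14TG2a embryonic stem cells, a single line, grown on gelatin with LIF and 15% FBS and given no further treatment, and all libraries are of its DNA, so that markers of cell type could not be checked. In hmTOP-seq the enzyme BGT adds an azide-glucose to 5hmC, an oligonucleotide is tethered to that sugar, and sequencing is primed from the tether, so that reads start at or next to the modified cytosine. There were 2 technical replicates at each of 500, 50 and 5 ng of input DNA, with 2 control libraries without BGT at each input, and 3 uTOP-seq libraries from 300 ng, in which unmodified CGs are labelled instead. For the uTOP-seq libraries the sources used here do not say whether the replicates are technical. All p-values below therefore measure the spread between libraries of 1 cell line, which may be technical, and neither method can tell the parental alleles apart.

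The labelled libraries held between 14884939 (5 ng) and 32502791 (500 ng) reads at CGs, and the uTOP-seq libraries between 20120568 and 28412885. The 6 control libraries held 3409 to 10072 reads. A level is the number of reads per CG in a region divided by the mean reads per CG of the same library, so that 1 is the library mean. In the 500-ng replicates that mean was 1.52 and 1.49 reads per CG. It was 1.08 and 1.03 for the 50-ng replicates, 0.697 and 0.715 for the 5-ng replicates, and 1.33, 1.08 and 0.942 for uTOP-seq. Intervals and floors cover counting error only.

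The control libraries had few reads in the imprinted genes, as they had few reads at CGs in all. The members took 0.216% and 0.214% of the reads of the 500-ng replicates, against 0.174% of all CGs, and 0.222%, 0.223% and 0.229% of the uTOP-seq reads. The 500-ng controls had 13 and 17 reads in the 47 spans, at 11 CGs each, where the labelled replicates had 70250 and 68390. As shares of the control libraries these were 0.129% (95% interval 0.0687% to 0.221%) and 0.182% (0.106% to 0.291%). At 50 ng the controls had 5 and 6 reads, each at a single CG. At 5 ng a control had 48 reads (1.28% of the library) at 4 CGs, 28 of them at 1 CG in Trappc9. The other 5-ng control had 0, which allows a share of up to 0.077% (exact binomial upper bound). The reads were stacked on few CGs at 50 ng and in that 5-ng control. At 500 ng they were less stacked, though 5 of the 17 reads of a control lay at 1 CG in Igf2r.

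Sequences from the control regions are shown first, because their letters carry the CGs whose reads are described later. The set from the H19 upstream region is printed because this stretch, between H19 (a noncoding RNA expressed from the maternal copy) and Igf2 (a fetal growth factor expressed from the paternal copy), is the textbook insulator bound by CTCF. Capitals mark each match to the CTCF consensus CCGCNNGGNGGCAG, searched on both strands. All 4 matches lie on the minus strand, so the capitals read as its reverse complement. Sequences are from RefSeq's GRCm38 assembly, plus strand, 5′ to 3′.
H19 upstream, chr7:142580301-142580330: gtattgtaCTGCCACCACGCGGcatcgtct
H19 upstream, chr7:142580756-142580785: ggagtatgCTGCCACCGCGCGGtagcatcc
H19 upstream, chr7:142581782-142581811: agacttcaCTGCCGCCGTGCGGcaaccctg
H19 upstream, chr7:142582026-142582055: cgattttgCTGCCACCACGCGGcaactccc
The matches start 2166, 2621, 3647 and 3891 bp upstream of the H19 start. Of 853328 stretches of 3 kb on the genome grid, 528 (0.0619%) held the consensus and 1 (0.000117%) held 4 or more.

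The letters bound by ZFP57, TGCCGC, were searched on both strands of 15 CG-dense windows at promoters tied to imprinting control regions and in 4 stretches upstream of H19, Meg3, Rasgrf1 and Zdbf2. Each promoter window is the one with most CGs near an annotated transcript start of its gene. At Grb10 and Inpp5f that rule took the main promoter, whereas the germline control region is known to lie at an internal promoter, so values of those internal windows are given as well. For Nespas it took a window that also holds a Gnas start. Another Nespas start lies in chr2:174295001-174296000, and values of that window are given too. A match on the minus strand reads GCGGCA. The hexamer was found in 11 of the 15 promoter windows (73.3%), in 65 of the 121 CG-dense windows of the members (53.7%), and in 40.4% of all 43465 CG-dense windows. It holds a CG itself, and the promoter windows were picked for most CGs, whereas 28332 of all windows had only 30 to 49. A background matched for CG number was not computed, so these shares cannot tell enrichment of the letters from CG density. Copies from Snrpn and Meg3, the promoter window and the upstream stretch with most of them, are printed with the hexamer in capitals.
Snrpn promoter, chr7:60004167-60004196: agcccgcaggccGCGGCAacagcactccag
Snrpn promoter, chr7:60004507-60004536: agcccacaggctGCGGCAacagagctcctg
Snrpn promoter, chr7:60004776-60004805: agcccccacgctGCGGCAacacagctcctg
Meg3 upstream, chr12:109528404-109528433: gctgtgtacgcgTGCCGCgaaccgccgtgg
Meg3 upstream, chr12:109528427-109528456: gccgtggaattgTGCCGCggttcgccgtgg
The Snrpn window held 8 copies, 7 of them on the minus strand, as are the 3 printed. The 6-kb stretch upstream of Meg3 held 10 copies, a number reached by 0.00703% of 6-kb stretches of the genome. Rasgrf1 upstream held 9 copies, Mest 7, Impact and H19 upstream 5 each and Nnat 4. Zrsr1, Mcts2, the chosen Nespas window and the main promoter of Inpp5f held 0. At least 5 copies were present in 0.341% of all CG-dense windows, which are 1 kb long. The upstream stretches are longer. The number at Rasgrf1 was reached by 0.0355% of 10-kb stretches of the genome, and that at H19 by 0.0592% of 3-kb stretches. Zdbf2 upstream held 2 copies, reached by 24.1% of 15-kb stretches. Of the 5 copies upstream of H19, 4 share bases with a CTCF match. A match is only a match of letters and says nothing of binding in these cells.

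Over whole gene spans the imprinted genes were close to genes at large in the amount of either mark. Their median 5hmC level was 1.09 at 500 ng, against 1.02 over all gene spans, and their median uCG level was 1.22 against 1.24. A 5hmC level of at least 1 in both 500-ng replicates was reached by 27 of 47 members (57.4%, all gene spans 49.3%). A uCG level of at least 1 in all 3 replicates was reached by 34 (72.3%, all gene spans 58.7%), and both by 20 (42.6%, all gene spans 42.5%). At single CGs, 3258 of the members' CGs had a read in both 500-ng replicates and in all 3 uTOP-seq replicates, 8.75% of them against 6.76% of all CGs. Among themselves the members ranged from 0.131 to 2.83 for 5hmC and from 0.676 to 2.97 for uCG.

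**Figure D1:**
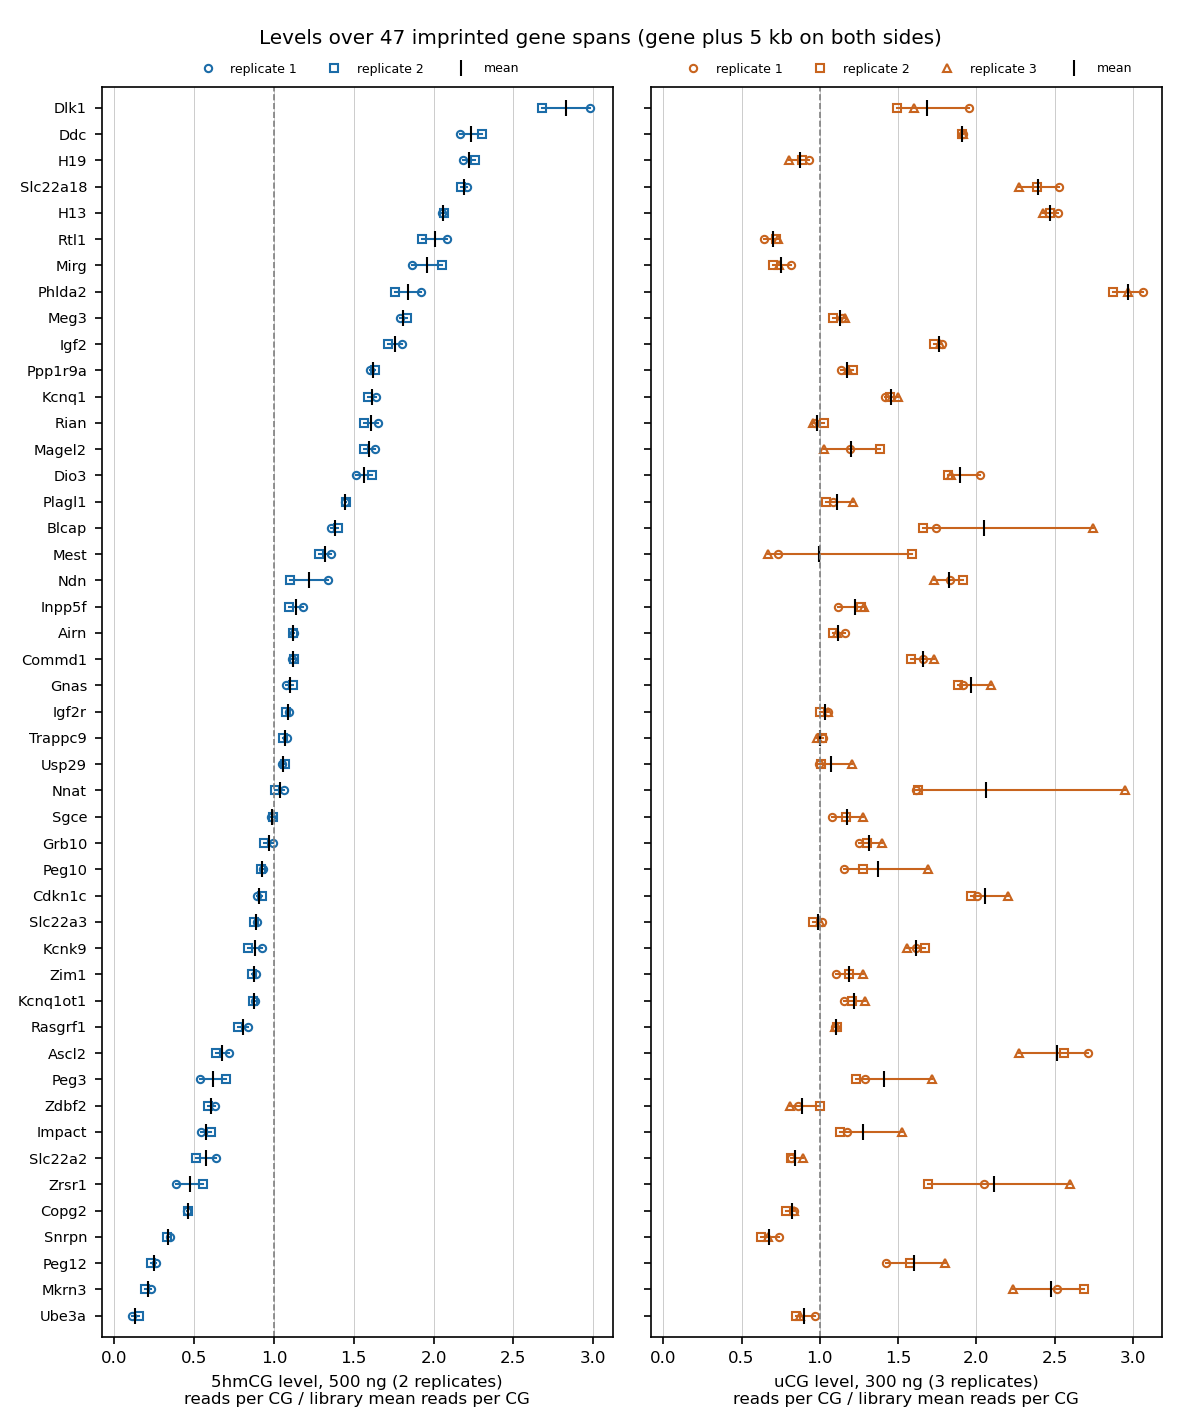
5hmC (500 ng, 2 replicates) and uCG (300 ng, 3 replicates) levels of the 47 imprinted genes, each point a library, with genes ordered by mean 5hmC level and the library mean at 1. Replicates of a gene lie close together beside the range over genes, which runs from Ube3a (0.131) to Dlk1 (2.83) for 5hmC, and the largest gaps between uTOP-seq replicates are at Mest, Nnat and Blcap.

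Dlk1, a paternally expressed membrane protein of the Notch ligand family, had the highest 5hmC, with levels of 2.98 and 2.68 (mean 2.83 ± 0.211 SD, n = 2). Ddc, which encodes the decarboxylase that makes dopamine and serotonin and neighbours Grb10, followed with 2.16 and 2.30 (2.23 ± 0.0990, n = 2). The order of Ddc, H19 and Slc22a18 is not resolved, since H19 had 2.19 and 2.26 (2.22 ± 0.0509, n = 2) and Slc22a18, an organic cation transporter gene, 2.21 and 2.17 (2.19 ± 0.0230, n = 2). H13, the signal peptide peptidase gene, had 2.05 and 2.06. At 500 ng Dlk1 lay above these 4 in both replicates. At 50 ng Dlk1 had 2.45 and 2.46 and Ddc 2.39 and 2.39. At 5 ng Dlk1 had 1.64 and 2.92 and Ddc 2.35 and 2.67, so the lead was not held there.

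The 5 lowest genes for 5hmC were on chromosome 7 or 6, and 4 of them belong to the Snrpn/Ndn cluster, the mouse counterpart of the Prader-Willi and Angelman region. Ube3a, the ubiquitin ligase gene of Angelman syndrome, had levels of 0.108 and 0.155 (0.131 ± 0.0331, n = 2), and Mkrn3, a zinc finger gene linked to the timing of puberty, had 0.229 and 0.193. Peg12 had 0.263 and 0.229, and Snrpn, which encodes a splicing protein, had 0.346 and 0.329. Copg2, a coat protein gene beside Mest, had 0.455 and 0.464. All 5 lay below 0.5 in both replicates, and none of the highest 5 lay below 2.

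For uCG the highest member was Phlda2, a maternally expressed regulator of placental growth, with 3.06, 2.87 and 2.97 (2.97 ± 0.0967, n = 3). It was followed by Ascl2, a transcription factor needed for the placenta, with 2.71, 2.56 and 2.27, and by Mkrn3, with 2.52, 2.68 and 2.24. H13 (2.52, 2.47 and 2.43) and Slc22a18 (2.53, 2.38 and 2.27) came next, so that H13 and Slc22a18 were among the highest 5 for both marks. The Slc22a18 span overlaps that of Phlda2. Its downstream flank (153 CGs) had a mean uCG level of 3.08 and 5hmC of 1.19, and its body 2.07 and 2.77. Ascl2, Mkrn3, H13 and Slc22a18 overlapped in their replicates. The lowest uCG levels were those of Snrpn (0.739, 0.624 and 0.666), Rtl1 (0.641, 0.723 and 0.731), Mirg (0.814, 0.700 and 0.741), Copg2 (0.835, 0.787 and 0.838) and Slc22a2 (0.819, 0.818 and 0.892). Snrpn and Copg2 were thus low in both marks, while Rtl1 and Mirg were low in uCG only.

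**Figure D2:**
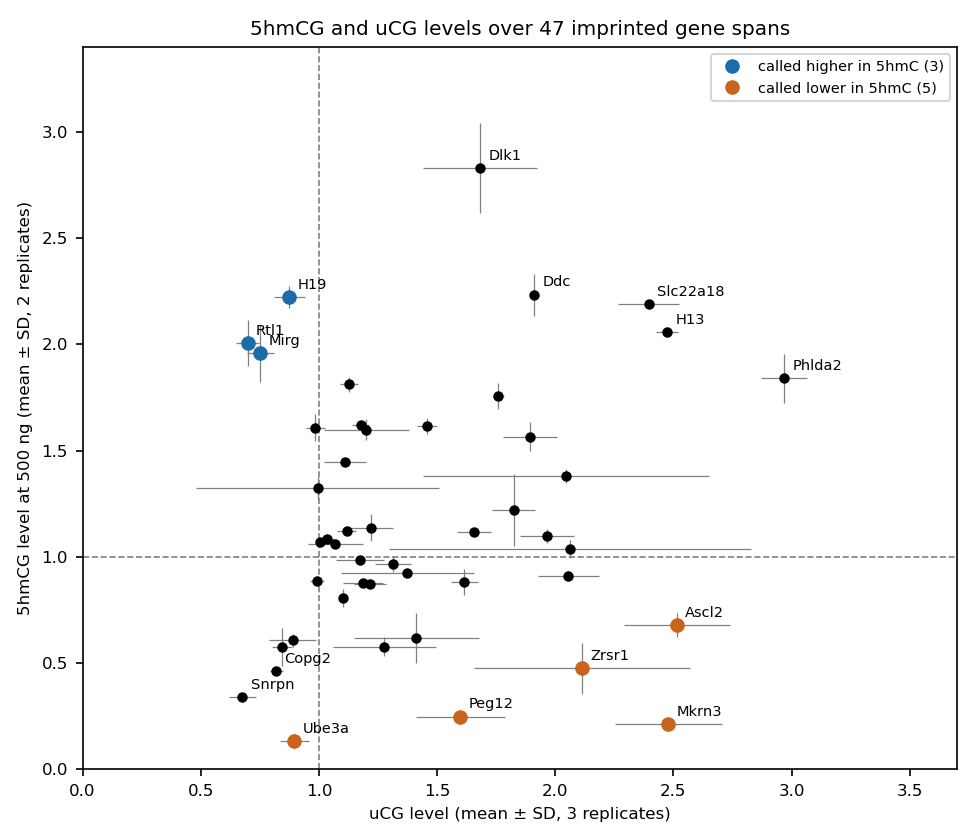
Mean 5hmC level (500 ng, n = 2) against mean uCG level (300 ng, n = 3) of the 47 imprinted genes, error bars SD, with the genes called in the comparison of both marks in colour. H19, Rtl1 and Mirg lie at high 5hmC with uCG below 1, Mkrn3 and Ascl2 lie at high uCG with low 5hmC, and H13 and Slc22a18 are above 2 in both.

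Grouped by cluster, 5hmC fell into a wide range. H13 (2.06 ± 0.00818, n = 2), the Dlk1/Dio3 cluster (1.93 ± 0.0141) and H19/Igf2 (1.90 ± 0.0270) led. The Kcnq1 cluster, which holds the cell cycle inhibitor gene Cdkn1c and the noncoding RNA Kcnq1ot1, had 1.56 ± 0.0297. Gnas (1.10), Trappc9 with Kcnk9 (1.05), Peg3 (1.01) and Igf2r (0.960) were near the library mean. Zdbf2 (0.607), Impact (0.576) and Snrpn/Ndn (0.456 ± 0.0167) were the lowest, although the uCG level of the Snrpn/Ndn cluster was 1.09. The share of CGs with both marks ran from 20.9% in H13 to 2.64% in Impact and 2.90% in Snrpn/Ndn.

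Within the Dlk1/Dio3 cluster all 6 members were well above the library mean in 5hmC. Rtl1, a retrotransposon-derived gene needed in placenta, had 2.01 ± 0.109, and the noncoding RNA genes Mirg, Meg3 and Rian had 1.96 ± 0.135, 1.81 ± 0.0335 and 1.61 ± 0.0653 (all n = 2). Dio3, which encodes the enzyme that inactivates thyroid hormone, had 1.57 ± 0.0683. In mean uCG level Dio3 (1.89), Dlk1 (1.68) and Meg3 (1.13) were above the library mean, and Rtl1 (0.698), Mirg (0.752) and Rian (0.985) were below it. The Snrpn/Ndn cluster was divided too, but in 5hmC. Magel2 (1.63 and 1.56) and Ndn (1.34 and 1.10), neighbouring single-exon genes, were above the library mean, while the 4 others were at or below 0.346 in each replicate.

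Along the genes, 5hmC was lower and uCG higher around the start than in the body, as in genes at large. Within 1 kb of the start the members' median 5hmC level was 0.552 (all genes 0.508), and in the body 1.15 (1.09). For uCG the medians were 2.04 (1.90) and 1.18 (1.06). Snrpn, with fewer than 10 CGs at its annotated gene start, was left out. 5hmC was lower at the start than in the body in both replicates for 33 of 46 members (71.7%, all genes 62.3%), and uCG was higher at the start in all 3 replicates for 31 (67.4%, all genes 61.9%). H13 had 0.0745 ± 0.000956 at its start and 2.32 ± 0.00697 in its body. Ube3a had 0.00242 at its start, over 138 CGs, and 0.177 in its body. The flank downstream of the gene was the part where members and all genes were farthest apart in 5hmC, with medians of 1.17 and 0.923.

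Slc22a18, Kcnq1 and Slc22a3 were among those that went the other way, with more 5hmC at the start. Slc22a18 had 5.24 ± 0.0180 over the 11 CGs around its start, and 2.77 ± 0.0776 in its body. Kcnq1, a potassium channel gene, had 2.45 ± 0.125 over 65 CGs against 1.61 ± 0.0396, and the transporter gene Slc22a3 had 1.77 ± 0.0466 over 88 CGs against 0.755 ± 0.0178. At Kcnq1 the uCG level at the start was also high, at 2.38 ± 0.273 (n = 3), so that this start carried both marks.

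CG-dense windows were 1-kb stretches of the genome grid with at least 30 CGs, and the members held 121 of 43465. A mark was counted as present where the level was at least 1 in every replicate. Both marks were present in 21 member windows (17.4%, all windows 21.9%), 5hmC without uCG in 16 (13.2%, all windows 5.13%), and uCG without 5hmC in 64 (52.9%, all windows 40.3%). The other 20 had neither. A window with fewer than 10 reads can only fall in the class with neither mark. At least 10 reads were held by 119 of the members' windows but by 36567 of all 43465. Without such windows, 5hmC without uCG was therefore found in 16 of 119 member windows and 2231 of 36567 in all. For uCG without 5hmC the counts were 64 of 119 and 17495 of 36567. The members and all windows lay closer together on this base. The members were above the background in windows with 5hmC and less uCG. That class also takes windows where only 1 uTOP-seq replicate fell below the limit, and no alternative was run for it. For windows with both marks the side depends on the limit, since at 0.5 times the library mean the members had 39.7% and all windows 32.3%, and with the mean over replicates 24.0% and 24.3%. The 5hmC of the member windows with both marks was also weaker, with a median of 1.99 against 3.15 over all such windows, and 2.26 against 2.78 for uCG.

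**Figure D3:**
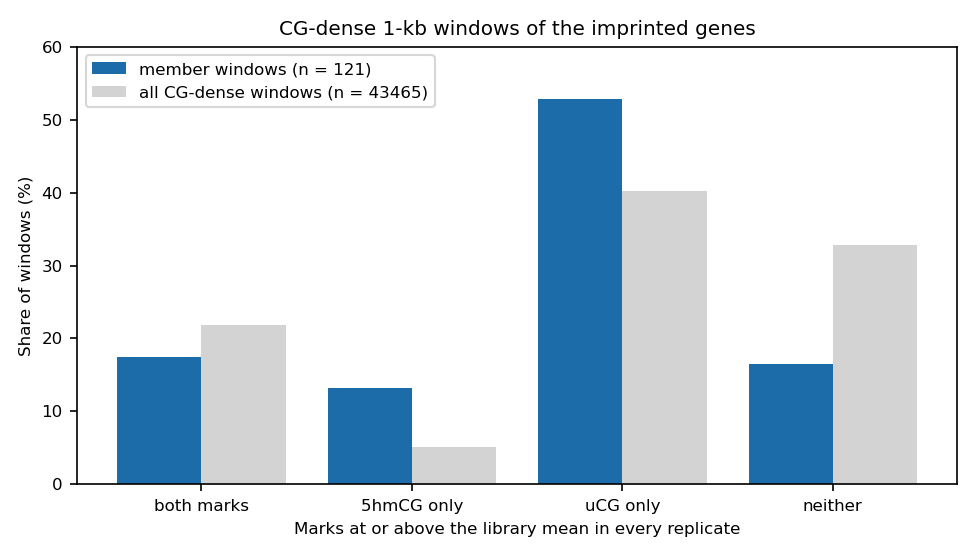
Share of CG-dense 1-kb windows by the marks present, for the 121 windows of the members and for all 43465. Windows with 5hmC and less uCG made up 13.2% of the members' and 5.13% of all, and windows with neither 16.5% and 32.8%. Windows with fewer than 10 reads are included, all in the class with neither mark. They are more common among all windows (36567 with at least 10) than among the members' (119 with at least 10).

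The strongest windows with both marks were at Plagl1 and Dlk1. At Plagl1, a zinc finger growth regulator, the window chr10:13127001-13128000 (31 CGs, overlapping an exon) had 5hmC levels of 6.17 and 6.45 and uCG levels of 1.41, 1.22 and 1.57. At Dlk1, chr12:109459001-109460000 (42 CGs, exonic) had 6.59 and 5.77 for 5hmC and 3.42, 2.22 and 1.90 for uCG. Neither window is the gene's control region, and in both the 50-ng and 5-ng levels were above 2 in each replicate.

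At Trappc9, which encodes a trafficking protein expressed mainly from the maternal allele in brain, a window 2045 bp from a transcript start (chr15:73058001-73059000) had 5.41 ± 0.178 for 5hmC and 2.26 ± 0.643 for uCG. Usp29 had 4.83 ± 0.0474 and 1.54 ± 0.427, Meg3 4.78 ± 0.343 and 1.30 ± 0.203, and Slc22a18 4.22 ± 0.304 and 3.61 ± 0.321. An intronic window of Kcnq1 (chr7:143154001-143155000) had 3.0 ± 0.310 and 4.74 ± 0.398, the highest uCG level among the 21. Dio3 held 4 such windows, between chr12:110277001 and chr12:110282000, at 1.76 to 2.87 for 5hmC. Gnas held 3, at 1.13 to 1.79.

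In the 50-ng replicates 18 of the 21 (85.7%) again reached the library mean for 5hmC in both, against 90.5% of all windows with both marks. The 3 that did not were a pair at Gnas, with lower replicates at 0.927 and 0.940, and Zim1, at 0.654. At 5 ng 9 of 21 did (42.9%, all windows 69.2%), where the libraries were the shallowest. Of the 64 windows with uCG and less 5hmC, 0 reached it at 50 ng (all such windows 1.53%) and 1 at 5 ng (1.56%, all such windows 1.85%).

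Of the 16 windows with 5hmC and less uCG, 7 were in the Dlk1/Dio3 cluster. Rtl1 held 4, and these were all its CG-dense windows. Its first, chr12:109590001-109591000 (37 CGs), had 5hmC levels of 2.43 and 2.44 against uCG levels of 0.630, 0.325 and 0.574, and over the 4 the mean 5hmC level was 1.53 to 2.44 and the mean uCG level 0.313 to 0.509. In 3 of the 4 windows microRNA genes overlap Rtl1, and the CG levels there belong to both. Mirg (2.49 ± 0.316), Meg3 (3.27 ± 0.351) and Dlk1 (3.60 ± 0.0596) held 1 each besides. Peg10, another retrotransposon-derived gene, had 3.06 ± 0.0232 in a window over an exon, with uCG at 0.962 ± 0.0680. Not every window of this class had little uCG. At Nnat the uCG mean was 2.21, but replicate 2 stood at 0.856 and kept the window out of the class with both marks. Windows of this class at Mest (uCG 0.728, 2.02 and 0.497), Inpp5f (0.655, 1.34 and 2.02), Igf2r (1.33, 0.432 and 1.06) and Gnas (0.752, 0.701 and 1.67) also had replicates far apart.

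The windows and stretches taken for control regions had 5hmC below the library mean, except the stretch upstream of Zdbf2. Of the 15 promoter windows 10 had uCG without 5hmC at the limit (all windows 40.3%), 5 had neither (32.8%), and 0 had both (21.9%). These background shares are not matched for CG number, and the promoter windows held 35 to 137 CGs. Of all windows, uCG without 5hmC was found in 6806 of 28332 with 30 to 49 CGs and in 5296 of 8206 with 50 to 69. It was found in 4208 of 4980 with 70 to 99 CGs and in 1185 of 1947 with 100 or more. Low 5hmC is usual in such windows, as the median over all CG-dense windows was 0.233, and 0.157 over those with 50 to 69 CGs. The 5hmC level was 0.0317 to 0.254 in 11 of them and 0.551 to 0.729 in the other 4 (Nespas, Airn, Peg13 and Plagl1). Snrpn (chr7:60004001-60005000, 35 CGs) had 0.0751 and 0.0382 for 5hmC and 1.98, 1.35 and 2.46 for uCG. Kcnq1ot1 (chr7:143295001-143296000, 63 CGs), the paternally expressed antisense RNA in Kcnq1, had 0.0626 and 0.170 for 5hmC and 1.96, 1.70 and 1.84 for uCG. Airn, the antisense RNA that silences Igf2r, differed with 0.734 and 0.498 for 5hmC beside 1.49, 1.49 and 1.25 for uCG.

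Peg3, a zinc finger gene expressed from the paternal copy, had 0.114 and 0.102 for 5hmC and 2.27, 2.19 and 3.16 for uCG. Zrsr1 had 0.0450 and 0.0183 against 2.04, 2.05 and 3.43, and Impact 0.109 and 0.0929 against 2.05, 1.81 and 3.54. In these 3 windows replicate 3 of uTOP-seq was the highest. The highest uCG of the promoter windows, with replicates close together, was at Mcts2 and in the chosen window of Nespas. Mcts2, an imprinted copy within H13, had 3.25, 3.32 and 3.06, and Nespas, an antisense RNA at Gnas, 3.93, 3.89 and 3.66. The window at the other Nespas start (chr2:174295001-174296000, 46 CGs) had lower and more varied uCG, at 1.83, 2.23 and 2.91. Its 5hmC levels were 0.0286 and 0.189. Inpp5f had 2.15, 3.0 and 2.50, and Grb10, a growth inhibitor gene, 1.0, 1.15 and 1.01 over 137 CGs, at the limit. The internal promoter window of Inpp5f (chr7:128688001-128689000, 55 CGs) had 0.155 and 0.122 for 5hmC and 2.19, 2.0 and 2.97 for uCG. That of Grb10 (chr11:12026001-12027000, 101 CGs) had 0.416 and 0.344 for 5hmC and 1.09, 1.13 and 1.83 for uCG. Both internal windows are of the same class as the main ones, uCG without 5hmC at the limit.

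The 5 promoter windows with neither mark at the limit were those of Mest, Peg10, Plagl1, Nnat and Peg13. The window chosen for Peg13, a noncoding RNA within Trappc9, was low in uCG in all replicates (0.506, 0.415 and 0.238). Its 5hmC levels were 0.778 and 0.614. The Peg13 start lies 324 bp away, in the next window (chr15:72810001-72811000, 42 CGs). That window had uCG levels of 1.32, 0.485 and 1.01, the highest 2.73 times the lowest, and a mean 5hmC level of 0.363. Peg10 had 0.961, 1.29 and 1.87 for uCG and missed the limit in a single replicate. Plagl1 had more 5hmC than most control regions (0.712 and 0.747) and uCG levels of 0.814, 0.509 and 1.31.

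**Figure D4:**
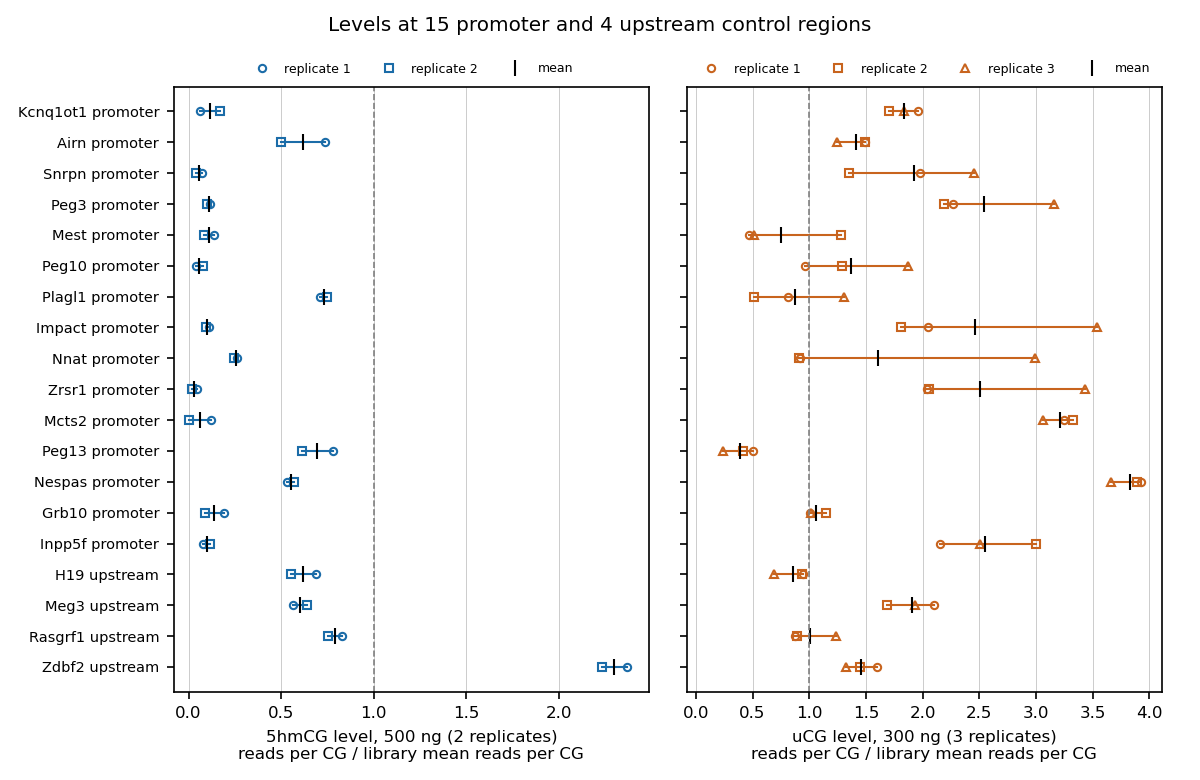
5hmC and uCG levels at the 15 promoter windows and 4 upstream stretches taken for imprinting control regions, each point a library, with the library mean at 1. 5hmC is below 1 in every region except the stretch upstream of Zdbf2 (2.37 and 2.23), and the uTOP-seq replicates are far apart at Nnat, Mest and Plagl1.

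Upstream of Zdbf2, a paternally expressed zinc finger gene whose activation starts from a distant promoter, the stretch chr1:63253265-63268265 (245 CGs) had 5hmC levels of 2.37 and 2.23 (2.30 ± 0.0968, n = 2) and uCG levels of 1.60, 1.45 and 1.33. It alone of the 19 regions had both marks at the limit, and its 5hmC level was 2.41 at 50 ng and 2.65 at 5 ng. At 15 kb it is longer than the 1-kb promoter windows, and levels of other stretches of this length were not computed. It was placed by its distance from the gene start, and whether it holds the distant promoter was not examined. The Zdbf2 span itself, which begins where this stretch ends, had 0.629 and 0.585. Of the 3 other upstream stretches, Meg3 had 0.564 and 0.638 for 5hmC and 2.10, 1.68 and 1.93 for uCG. Rasgrf1, a Ras exchange factor gene, had 0.830 and 0.753 for 5hmC and 0.878, 0.892 and 1.24 for uCG. The H19 stretch had 0.686 and 0.553 for 5hmC and 0.948, 0.939 and 0.692 for uCG, so neither mark reached the library mean in any replicate.

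At the CTCF letters printed above, the CGs within the capitals had 2 and 2, 2 and 2, 2 and 4, and 0 and 1 reads in the 500-ng replicates, in the order shown. In uTOP-seq the same letters had 0, 1 and 1, then 0 in all 3, then 0, 5 and 0, and 0 in all 3. With 2 or 3 CGs in each match these counts are too few to rank the sites. Among the Snrpn hexamers the CG of the copy at chr7:60004776-60004805 had the most uTOP-seq reads, 12, 3 and 5, with 0 and 0 hmTOP-seq reads. The copy at chr7:60004507-60004536 had 0, 1 and 1 uTOP-seq reads and 0 and 0 hmTOP-seq reads, and the copy at chr7:60004167-60004196 had 2, 0 and 0 and 1 and 0. Of the copies not printed, the most hmTOP-seq reads, 2 and 0, were at chr7:60004855-60004884, beside 4, 0 and 1 uTOP-seq reads. The 2 printed Meg3 copies had 1, 0 and 0, and 2, 0 and 0 uTOP-seq reads, and no hmTOP-seq reads.

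The uTOP-seq replicates were far apart at some of the control regions. This was looked for after the values had been seen. Among windows with a mean uCG level of at least 0.5, the highest replicate was at least 2 times the lowest in 3 of 14 promoter windows (21.4%, all windows 2.49%), Peg13 falling below 0.5. In member windows it was so in 15 of 114 (13.2%). With at least 100 uTOP-seq reads in a window the shares were 21.4%, 12.4% and 1.40%. The count rests on single libraries, for without replicate 2 only Nnat was left of the 3, without replicate 3 only Mest, and without replicate 1 all 3.

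At Nnat, a small paternally expressed gene inside an intron of Blcap, the promoter window had uCG levels of 0.914, 0.910 and 2.99, from 73, 59 and 169 reads. The windows on both sides of it also had their highest level in replicate 3, at 4.99 and 3.66 times the lowest. At Mest, a paternally expressed hydrolase gene, replicate 2 was the highest, with 0.467, 1.28 and 0.515 from 41, 91 and 32 reads, and 2 further Mest windows had replicate 2 at 4.07 and 2.82 times the lowest. The direction therefore differed between genes, and the highest replicate over the 114 member windows was replicate 1 in 32, replicate 2 in 36 and replicate 3 in 46. The 5hmC levels of the same windows at 500 ng were 0.263 and 0.245 for Nnat and 0.139 and 0.0811 for Mest, low in both replicates. Over the whole spans the uCG levels were 0.731, 1.59 and 0.666 at Mest and 1.61, 1.63 and 2.95 at Nnat. Whether the 3 libraries came from separate cultures is not given in the sources used here, and no cause was tested.

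Set against uCG, 5hmC at 500 ng was higher over 3 member spans (all spans 6.56%) and lower over 5 (all spans 14.3%), by edgeR's quasi-likelihood test with a Benjamini-Hochberg adjusted p below 0.05 and at least a 2-fold difference. All 47 members were tested, among 29584 spans. The fold change compares shares of libraries made with different chemistry, and is not a ratio of molecules. Rtl1 had 1059 and 963 hmTOP-seq reads and 285, 261 and 230 uTOP-seq reads (log2 fold change 1.74 ± 0.0875 SE, adjusted p = 1.21e-28). Mirg had 1154 and 1249 against 441, 308 and 284 (1.59 ± 0.0796, adjusted p = 1.05e-28), and H19 had 835 and 847 against 311, 241 and 190 (1.55 ± 0.0927, adjusted p = 1.20e-24). For none of these 3 did the levels of the marks overlap.

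Mkrn3 was farthest in the other direction, with 46 and 38 hmTOP-seq reads and 442, 383 and 278 uTOP-seq reads (log2 fold change -3.34 ± 0.169, adjusted p = 1.76e-28). Ube3a had 86 and 121 against 674, 480 and 430 (-2.56 ± 0.130), and Peg12 had 83 and 71 against 392, 352 and 351 (-2.48 ± 0.151). All 3 lie in the Snrpn/Ndn cluster. Zrsr1, a splicing factor retrogene, had 125 and 176 against 575, 386 and 517 (-1.94 ± 0.135), and Ascl2 had 298 and 260 against 985, 756 and 584 (-1.68 ± 0.0935). At a smaller difference the test passes almost everywhere, since 42 of 47 members and 81% of all spans had an unadjusted p below 0.05. Over gene spans without the flanks 14 members were called (all spans 24.7%), 4 higher and 10 lower.

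With less input DNA no imprinted gene passed the test. At 50 ng against 500 ng, 0 of 47 members were called higher (all spans 0.0%) or lower (all spans 0.00344%) by edgeR's quasi-likelihood test, and DESeq2 called 0 members too. At an unadjusted p below 0.05 there were 8 members, against 11% of all spans. The smallest adjusted p was that of Zdbf2, at 0.267, with 565 and 516 reads at 500 ng and 512 and 522 at 50 ng (log2 fold change 0.46 ± 0.115). Its levels were 0.629 and 0.585 at 500 ng and 0.805 and 0.857 at 50 ng. Without a 50-ng library the count was 6 (replicate 1 left out, all spans 11.8%) or 11 (replicate 2, all spans 12.7%), the lone library being assumed to vary like the 500-ng pair.

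At 5 ng against 500 ng, 0 of 46 tested members were higher (all spans 0.0%) or lower (all spans 0.0%), Mkrn3 having too few reads at 5 ng to be tested, and DESeq2 again called 0 members. There were 5 members at an unadjusted p below 0.05, against 11.5% of all spans. Zdbf2, Nnat, Igf2 and Commd1 shared the smallest adjusted p, 0.415. Zdbf2 had levels of 1.07 and 1.22 at 5 ng (log2 fold change 0.94 ± 0.162). Both comparisons share the 500-ng libraries. The fold changes of the members ran from -0.36 to 0.56 at 50 ng and from -0.50 to 1.09, at Zrsr1, at 5 ng. In counts drawn with known changes, the test found 88% of 2-fold changes at 50 ng and 25% at 5 ng, so at 5 ng a 2-fold change would mostly have been missed. Without a 5-ng library 31 (replicate 1 left out, all spans 55.3%) or 24 (replicate 2, all spans 54.1%) members were called, under the same assumption.

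**Figure D5:**
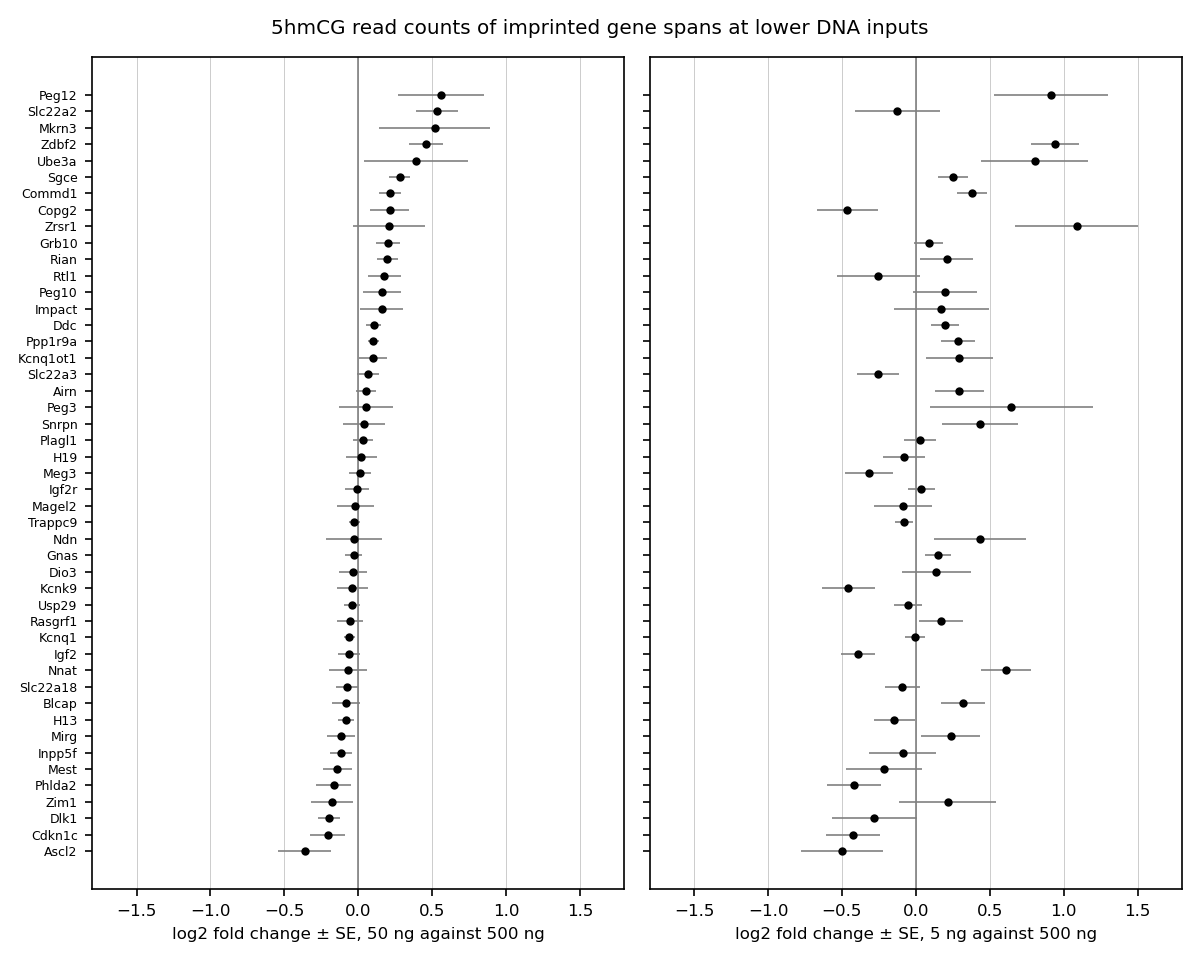
Log2 fold change (edgeR, error bars SE) of 5hmC read counts over the imprinted gene spans at 50 ng against 500 ng (left, 47 genes) and at 5 ng against 500 ng (right, 46 genes), with genes in the order of the left panel. The 50-ng values lie between -0.36 (Ascl2) and 0.56 (Peg12), and the 5-ng values, with wider error bars, between -0.50 and 1.09.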

How the data were processed

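Reads were mapped to mm10 by the authors, filtered on mapping quality and assigned to CG sites, and the deposited coverage tables give read counts per CG (hmTOP-seq) or per cytosine of a CG (uTOP-seq, summed here to the CG). Deposited positions count from 0 and were shifted to count from 1, after which 39768 of 39768 member entries lay on a CG of GRCm38. The members, lists and control regions were chosen with earlier results of these data known. Counts per gene span were compared with edgeR 4.0.16 (R 4.3.3; quasi-likelihood test, TMM, at least 10 reads in every library, Benjamini-Hochberg adjustment over all spans), with DESeq2 1.42.0 as an alternative, and the fits were tested on simulated data. Levels, windows and letter matches were computed with Python 3.11.15, numpy 2.4.6 and pandas 2.3.3, and carry no test. Per-library values are given for control regions, for the 5 highest and 5 lowest members for each mark and for called members; other windows and genes were picked after their values were seen. Replicate numbers did not pair the libraries (correlation of deviations 0.0195 and -0.00903).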

Additional observations from a re-analysis of the deposited data

How the results depend on the processing

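The numbers of members above the library mean kept within 1.5 times under all alternatives run (25 to 34 for 5hmC, 25 to 39 for uCG). When only CGs with a read were used, 2 members were called at 50 ng and 7 at 5 ng, the spans called in all rose from 1 to 872 and from 0 to 3163, and those called against uCG fell from 6179 to 1766. DESeq2 called 46 and 32 spans at 50 and 5 ng and a replicate block 127 and 8. Leaving out a library gave 0 to 11 members at 50 ng, 0 to 31 at 5 ng and 8 to 11 against uCG. Against uCG, spans without flanks gave 14 members, and library totals in place of TMM gave 12, moving the median over all spans from -0.01 to -0.23 and the higher share of all calls from 31.4% to 14.4% (13% with only CGs with a read). With only CGs with a read, Ascl2 (-0.99) and H19 (1.0) fell below the 2-fold limit. With the replicate block, 0, 0 and 8 members were called at 50 ng, at 5 ng and against uCG, as without it. Windows with both marks numbered 79 at 20 CGs or more (28.8%, all windows 29.9%), 10 at 40 or more (12%, 14.4%), 48 at a limit of 0.5 (39.7%, 32.3%), 4 at a limit of 2 (3.31%, 9.63%) and 21 to 24 without a library. With at least 10 reads, chosen after seeing the data, 21 of 119 remained (17.6%, 26.0%). Control regions with both marks numbered 6 at a limit of 0.5, 0 at 2 and 1 to 1 without a library. Promoter windows with spread uTOP-seq replicates numbered 1 at a mean level of at least 1, 7 at 1.5-fold (all windows 14.2%) and 1 to 3 without a library, also chosen after seeing the data. The cause of these shifts was not tested.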

Other observations

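Genes that maintain or erase imprints had the following levels, given with no test. Of 13 such genes, 11 had a 5hmC level of at least 1 in both 500-ng replicates (84.6%, all gene spans 49.3%). All 13 had a uCG level of at least 1 in all 3 replicates (all gene spans 58.7%). The median levels were 1.49 and 1.84, against 1.02 and 1.24 over all gene spans. Dnmt3l, a cofactor of de novo methylation, had the highest 5hmC level at 3.01 ± 0.0409, followed by Dnmt1, the maintenance enzyme, at 2.58 ± 0.0510, Dnmt3a at 2.43 ± 0.0325 and Tet1, whose product makes 5hmC, at 2.25 ± 0.0213 (SD, n = 2).

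A list of 27 other imprinted genes, Mcts2, Nespas and Peg13 among them, was read in the same way. A 5hmC level of at least 1 in both 500-ng replicates was reached by 13 (48.1%, all gene spans 49.3%). For uCG 20 reached it in all 3 replicates (74.1%, all gene spans 58.7%), and 13 reached both (48.1%, all gene spans 42.5%). Tspan32 (2.77 ± 0.00531), Ago2 (2.23 ± 0.0263) and Jade1 (2.19 ± 0.0127) had the highest 5hmC among them (SD, n = 2).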
